A study of Mus musculus with 12 samples.

Results

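Genes of G1/S control and DNA replication were examined in 12 Affymetrix Mm430_2.0 arrays of mouse NIH 3T3 fibroblasts. The set holds 51 genes chosen by name, from D-type cyclins through origin licensing to nucleotide supply. Of these, 50 had a probe set named for them among the 16475 probe sets tested, and all 50 entered every comparison without a filter on low values. Pcna, the sliding clamp of the replication fork, had none in the annotation used and was not analysed here.

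The arrays fall into 4 groups of 3. The inducible cells, 3T3-ind-IER2 #11 (called Klon11 in the labels), are a single clone of NIH 3T3 cells that carries mouse Ier2 behind a promoter switched on by the RheoSwitch ligand (RSL), together with the plasmid that encodes the ligand-dependent receptor and activator. They received 200 nM RSL or the solvent DMSO for 24 h, and parental NIH 3T3 cells without this system received the same. The labels give all 12 samples one growth protocol, with G418 and hygromycin in the medium. Replicates are labelled biological, but whether each came from its own culture is not said, and p-values then measure only the spread between arrays.

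In a cycling fibroblast, D-type cyclins with Cdk4 or Cdk6 and then E-type cyclins with Cdk2 phosphorylate the RB family, which releases E2F factors to transcribe the genes of S phase. Origins of replication are licensed in G1, when ORC, Cdc6 and Cdt1 load the MCM helicase, and fire in S phase, when Cdc7 with Dbf4 and the cyclin-dependent kinases recruit Cdc45 and GINS. Polymerase alpha with primase then starts each strand, and polymerases delta and epsilon extend it. CDK inhibitors of the Cip/Kip and INK4 families and the antiproliferative protein Tob1 restrain this entry.

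Many genes of this set are known to be regulated through E2F sites. To show what such a site looks like here, the 250 bases before the start of each gene were searched in RefSeq sequences (GRCm38.p6) for TTTNNCGC on both strands, where N is any base. This pattern is looser than the E2F consensus, and its palindromic cores can match on both strands at overlapping positions. It was present before 11 of the 41 members with a sequence (26.8%) and before 1335 of all 27025 genes in the table (4.94%). Ccnd1, Ccnd2, Ccne2, Gins1, Gins2, Gmnn, Mcm4, Pole and Rb1 had no entry. The 6 members below hold a match and also differed between the cell lines under both treatments, as described further on. They were picked after their values were seen. Each line gives 60 bases read 5′ to 3′ along the gene's strand, with the matched bases in capitals.
Cdc6, chr11:98907987-98908046: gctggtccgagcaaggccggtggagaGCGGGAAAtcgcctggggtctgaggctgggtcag
Mcm5, chr8:75109332-75109391: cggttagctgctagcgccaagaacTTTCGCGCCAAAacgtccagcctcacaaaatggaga
Mcm7, chr5:138172015-138172074: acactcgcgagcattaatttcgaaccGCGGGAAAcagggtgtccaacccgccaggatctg
Pola1, chrX:93632260-93632319: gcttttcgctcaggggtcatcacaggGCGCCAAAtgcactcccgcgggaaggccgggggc
Rbl1, chr2:157204535-157204594: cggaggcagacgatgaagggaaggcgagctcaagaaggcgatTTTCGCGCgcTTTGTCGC
Rfc3, chr5:151651209-151651268: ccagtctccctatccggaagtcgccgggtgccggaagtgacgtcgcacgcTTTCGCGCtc
The Cdc6 window lies on the plus strand from 164 to 105 bases before the start, and that of Mcm5, also on the plus strand, from 177 to 118 bases before it. The windows of Mcm7, Pola1, Rbl1 and Rfc3 lie on the minus strand. Those of Rbl1 and Rfc3 end at the last base before the start, and their matches lie in the final bases. Mcm5 holds a match on each strand, overlapping at the centre, and Rbl1 holds 2 side by side. Of the other motifs searched on both strands, CCAAT was before 22 of the 41 members (53.7%, against 37.5% of all genes) and TTTGAA, the core of the element called CHR, before 4 (9.76%, against 18.3%). A match describes the letters in this stretch, not binding, and these arrays hold no measurement of it.

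Levels are given as log2 values after RMA background correction and quantile normalization, so that a difference of 1 is a doubling. Array medians lay between 7.03 and 7.06. Correlations over all probe sets were 0.9981 to 0.9992 between arrays of one group, 0.9978 to 0.9988 between treatments of the same cells, and 0.9913 to 0.9932 between cell lines. Of 10 fibroblast markers, 8 were above the third quartile on all arrays, whereas 0 of 5 endothelial and 0 of 6 epithelial markers were above the median. Of 6 macrophage and leukocyte markers, 2 were above the median, among them Cd14 at 8.65 to 9.04, above the third quartile, and 2 were below the first quartile. Their part in the results was not tested. Ier2 itself read 9.07, 9.04 and 8.96 in the DMSO arrays of inducible cells and 8.50, 8.48 and 8.66 in those labelled RSL, a log2 difference of -0.47. In parental cells it read 8.60, 8.61 and 8.53 under DMSO and 8.82, 8.74 and 8.67 under RSL, a difference of 0.17. The induced gene was thus lower, not higher, in the inducible arrays labelled RSL. The sources used here do not say whether its probe set reads the transcript of the introduced copy. Directions below are those of the labels. If the labels of the inducible arrays were exchanged, which was not tested, every direction of RSL over DMSO in these cells would turn. The differences between the RSL effects of the cell lines would then take other values. Each comparison between the lines would set inducible and parental arrays of unlike treatments side by side.

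Most replication genes read in the upper range of these arrays. On all 12 arrays, 37 of the 50 members were above the third quartile of their array's values, which lay between 8.38 and 8.44. The exception at the bottom was Cdkn2a, the gene of the p16INK4a inhibitor and p19ARF, known to be deleted in NIH 3T3 cells. It read between 5.84 and 6.01 and was below the first quartile on all 12 arrays. Its RSL arrays lay just below its DMSO arrays in inducible cells, at -0.04 (adjusted p = 0.801 from limma), and the parental groups overlapped. Replicates were close: the pooled standard deviation within groups had a median of 0.045 over the members and of 0.049 over all probe sets, and ranged from 0.017 for Ccnd1 to 0.113 for Mcm6.

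The first comparison asks what 24 h of RSL changed in inducible cells. Most of the replication genes did not pass the test. Ccne2, which encodes cyclin E2, and Tob1 were higher in the arrays labelled RSL, and Cdt1, which brings the MCM helicase to origins, was lower. No D-type cyclin, MCM subunit, polymerase or nucleotide synthesis gene among the members passed. The test was limma's, its p-values were adjusted by Benjamini-Hochberg over all 16475 probe sets, and the threshold was 0.05. By this rule 2 of 50 members were higher, where 1.32% of all probe sets were, and 1 was lower, where 1.21% were.

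Ccne2 read 8.21, 8.13 and 8.07 in the DMSO arrays of inducible cells and 8.46, 8.50 and 8.32 in the arrays labelled RSL. All 3 RSL arrays were above all 3 DMSO arrays, and the log2 difference was 0.29 (standard error 0.07, adjusted p = 0.0254 from limma), a 1.22-fold higher level. In parental cells the gene read 8.10, 8.35 and 8.35 under DMSO and 8.06, 8.22 and 8.22 under RSL. Those groups overlapped, with the first array of each well below the other two, and the difference of -0.10 did not pass (adjusted p = 0.613 from limma). The difference between the effects in the cell lines, 0.40 with a standard error of 0.09, missed the threshold (adjusted p = 0.0714 from limma). The call in inducible cells was lost when any of 4 arrays was left out, with adjusted p-values of 0.0968 without DMSO replicate 2, 0.110 without DMSO replicate 3, 0.107 without RSL replicate 1 and 0.111 without RSL replicate 2. The difference between the cell lines passed without parental DMSO replicate 1, at 0.48 (adjusted p = 0.00873 from limma), and without inducible RSL replicate 3, at 0.45 (adjusted p = 0.0336). In every other fit that left out 1 array it did not pass, at 0.34 to 0.43 and adjusted p-values from 0.0806 to 0.209 from limma for Ccne2. Its relative Ccne1, cyclin E1, was 0.08 higher (standard error 0.03, adjusted p = 0.332 from limma) and Cdk2, the kinase of both, 0.07 higher (adjusted p = 0.451 from limma), and neither passed.

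Tob1, a member of the TOB and BTG family that restrains cell cycle entry, read 7.57, 7.54 and 7.48 under DMSO and 7.71, 7.83 and 7.73 in the arrays labelled RSL. The groups did not overlap, and the log2 difference was 0.23 (standard error 0.04, adjusted p = 0.00319 from limma). In parental cells all 6 arrays lay between 7.36 and 7.42, below every inducible array, and the difference was 0.00. The effects differed by 0.23 (standard error 0.05), short of the threshold (adjusted p = 0.0679 from limma). Leaving out single arrays kept the call, with differences between 0.19 and 0.25 and a highest adjusted p of 0.0195.

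Cdt1 read 10.33, 10.36 and 10.41 under DMSO and 10.26, 10.19 and 10.23 in the arrays labelled RSL of inducible cells. Again no arrays overlapped, and the log2 difference was -0.14 (standard error 0.03, adjusted p = 0.0317 from limma). In parental cells it read 10.59, 10.61 and 10.56 under DMSO and 10.56, 10.55 and 10.51 under RSL, all above the inducible arrays. The difference there was -0.04, and the effects in the cell lines differed by -0.10 (adjusted p = 0.566 from limma). This call was lost without any one of the 6 inducible arrays, at adjusted p-values from 0.0523 to 0.137. Gmnn, which encodes geminin, the inhibitor of Cdt1, differed by 0.01 (standard error 0.04) in the same comparison.

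**Figure D1:**
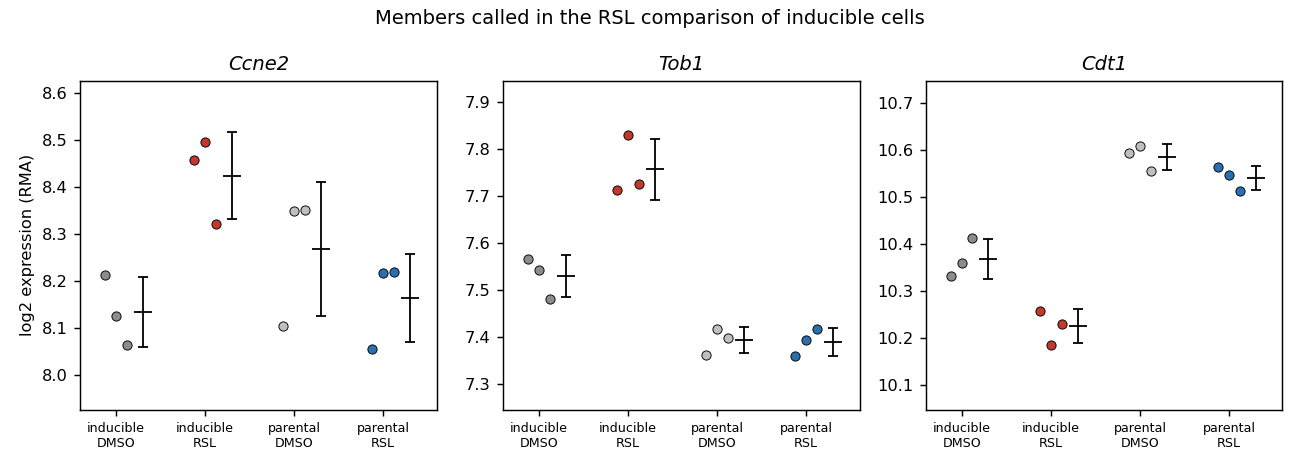
Log2 expression of Ccne2, Tob1 and Cdt1 by cell line and treatment; points are single arrays, and the bars beside them give the mean and standard deviation of each group of 3; each panel spans 0.7 on the log2 scale. In inducible cells all RSL arrays lie above the DMSO arrays for Ccne2 and Tob1 and below them for Cdt1.

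The other 47 members lay between -0.15 and 0.10 in this comparison, and over all 50 the median was 0.00, as it was over all probe sets, with 25 members above 0 and 25 below. Just short of the threshold were Ccnd1, the cyclin D1 gene, at -0.11 (standard error 0.03, adjusted p = 0.0519 from limma), and Pola1, the catalytic subunit of polymerase alpha, at -0.15 (standard error 0.04, adjusted p = 0.0668 from limma). Ccnd1 read 10.97, 10.95 and 11.00 under DMSO and 10.88, 10.85 and 10.85 in the arrays labelled RSL, without overlap. Both passed when the lowest 40% of probe sets were left out, at adjusted p-values of 0.0235 and 0.0406. They also passed with array weights, and Ccnd1 with an intensity trend or array medians subtracted. With any single inducible array left out, neither passed, and Ccnd1 had adjusted p-values from 0.105 to 0.182 from limma. Nor did either pass with the replicate number as a block (adjusted p = 0.0985 from limma for Ccnd1). At an unadjusted p under 0.05, 4 members were higher, where 6.29% of all probe sets were, and 5 lower, where 6.04% were. Counted array by array, 9 members had all RSL arrays above all DMSO arrays, where 9.34% of all probe sets did, and 8 had them all below, where 8.75% did.

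By role, RSL left the helicase and fork genes of the inducible cells mostly near 0. The MCM subunits lay between -0.10 for Mcm6 and 0.02 for Mcm7. The origin firing genes Cdc7, Dbf4, Cdc45, Mcm10, Gins1 and Gins2 lay between -0.05 and 0.04. Of the fork genes, the accessory subunit of polymerase alpha, Pola2, was highest at 0.10, and the clamp loader subunit Rfc4 was at -0.12, neither passing the test. For nucleotide supply, the ribonucleotide reductase genes Rrm1 and Rrm2, the thymidylate synthase gene Tyms and the thymidine kinase gene Tk1 lay between -0.06 and 0.03. Standard errors of the members in this comparison ran from 0.030 to 0.071.

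In parental cells, which lack the inducible construct, RSL changed 0 of the 50 members by this test, where 0.0243% of all probe sets were called higher and 0.00607% lower. The differences lay between -0.22 and 0.08, with a median of -0.02 against 0.01 over all probe sets, and 37 members were below 0 and 13 above, where 7318 of all probe sets were below and 9157 above. At an unadjusted p under 0.05, 0 were higher, where 4.81% of all probe sets were, and 6 lower, where 4.9% were, namely Cdk2, Mcm4, Mcm6, Pola1, Rb1 and Rpa1. Pole was the 1 member with all RSL arrays above all DMSO arrays, where 7.12% of all probe sets were, and 9 members had them all below, where 6.15% of probe sets did.

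The farthest from 0 in parental cells were 2 subunits of the MCM helicase. Mcm6 read 10.29, 10.42 and 10.43 under DMSO and 10.11, 10.15 and 10.23 under RSL, a log2 difference of -0.22 (standard error 0.07, adjusted p = 0.375 from limma). Mcm4 read 10.71, 10.77 and 10.80 under DMSO and 10.51, 10.63 and 10.53 under RSL, a difference of -0.20 (standard error 0.07, adjusted p = 0.371 from limma). In both, the parental groups did not overlap, but neither difference passed. In inducible cells the same genes scattered widely, with Mcm6 at 10.26, 10.24 and 10.07 under DMSO and 10.09, 10.26 and 9.91 in the arrays labelled RSL. Mcm4 read 10.80, 10.75 and 10.68 under DMSO and 10.64, 10.85 and 10.49 in the arrays labelled RSL. The 2 genes thus ranked the 3 arrays of each inducible group in the same order, with replicate 3 the lowest both times. Only 1.09% of all probe sets had a larger pooled standard deviation within groups than Mcm6, and 1.94% a larger one than Mcm4.

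The test of whether the RSL effect differed between the cell lines called 0 of the 50 members, where 0.358% of all probe sets were called higher and 0.303% lower. Differences between the effects lay between -0.13 and 0.40. At an unadjusted p under 0.05, 5 members were higher, where 4.39% of all probe sets were, namely Ccne2, Cdk2, Rb1, Rpa1 and Tob1. Rbl1 was the 1 member lower, where 4.67% of probe sets were. Cdk2 was 0.07 higher with RSL in inducible cells and 0.09 lower in parental cells, a difference of 0.16 (standard error 0.05, adjusted p = 0.249 from limma). Rb1, the retinoblastoma gene, was at 0.04 and -0.15 in the same cells, a difference of 0.19 (standard error 0.06, adjusted p = 0.303 from limma).

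**Figure D2:**
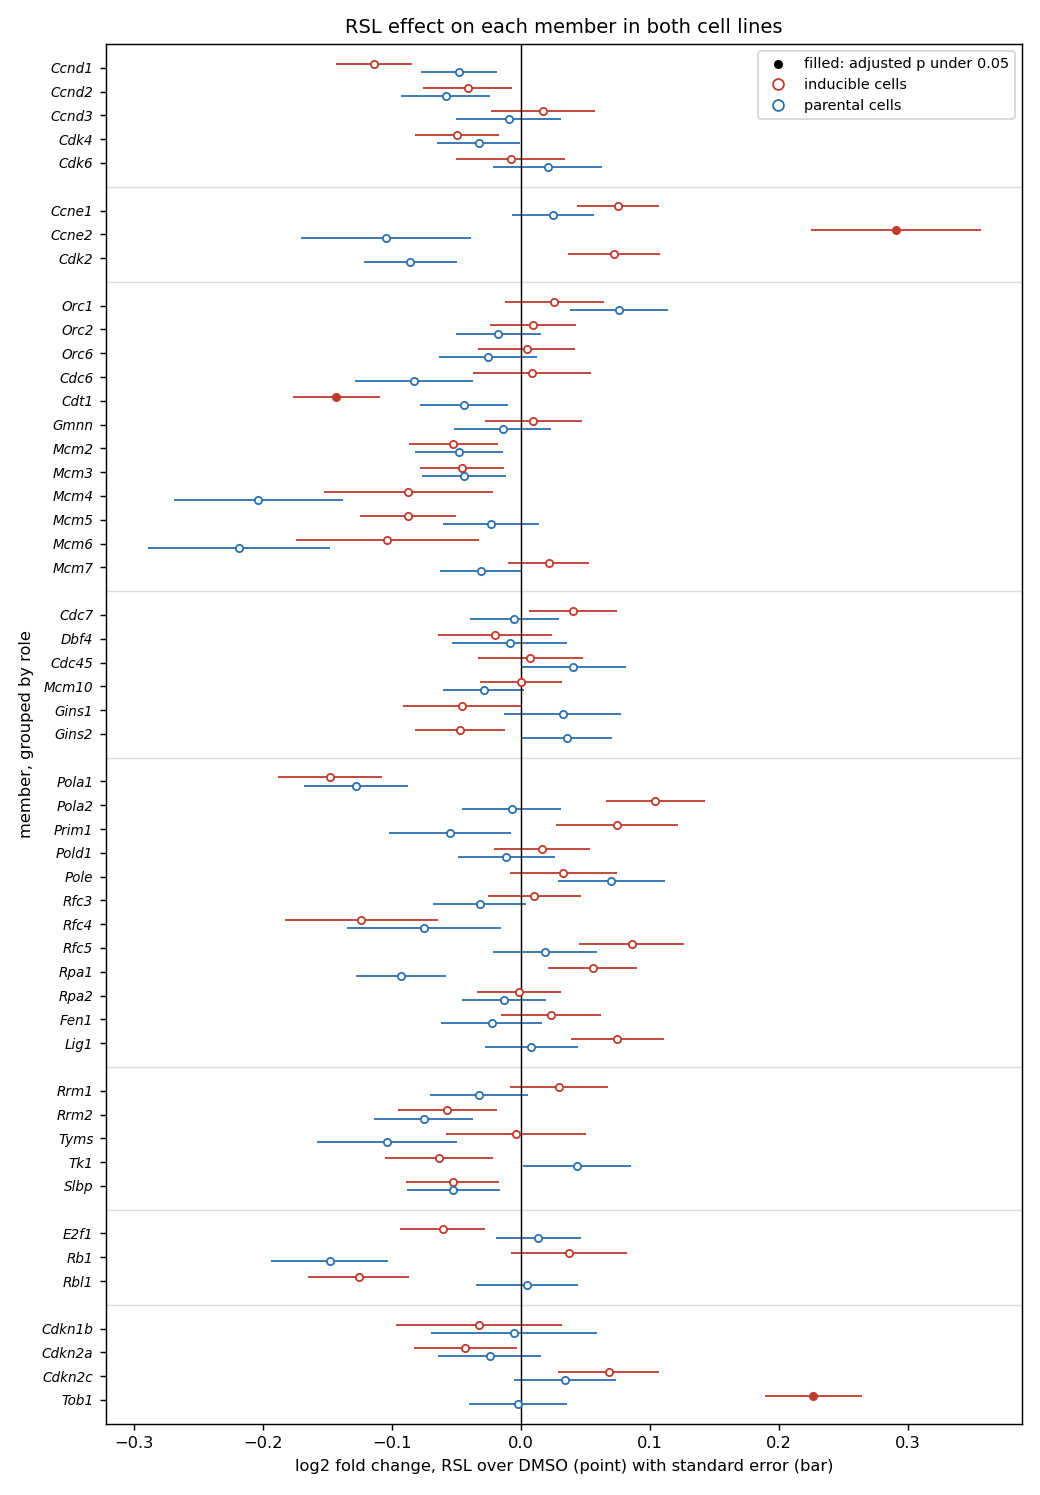
Log2 fold change of RSL over DMSO for the 50 members in inducible and in parental cells (points) with limma's standard errors (bars), grouped by role; filled points have an adjusted p under 0.05. Only Ccne2, Tob1 and Cdt1 in inducible cells are filled, and 37 members lie below 0 in parental cells.

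The cell lines themselves differed far more than the treatments. The question here is how the clone compares with parental cells, once under DMSO and once under RSL, on arrays that the 2 comparisons do not share. In inducible cells the members of polymerase alpha and primase, Pola1, Pola2 and Prim1, were lower under both treatments. So were the licensing genes Cdt1, Gmnn, Orc2, Mcm3, Mcm5 and Mcm7, the kinase gene Cdk4 and the RB relative Rbl1. Cyclin genes Ccne1 and Ccnd2, the licensing factor Cdc6, the INK4 inhibitor Cdkn2c and Tob1 were higher under both. The largest difference was 1.42-fold, for Rbl1 under RSL.

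Under DMSO, 11 of 50 members (22%) were called higher in inducible cells, where 15.2% of all probe sets were, and 16 (32%) lower, where 14.5% were. Under RSL the counts were again 11 higher and 16 lower, where 17.5% and 16.8% of all probe sets were called. Calls were more frequent among strongly expressed probe sets: with the lowest 40% left out, 48.8% of the remaining probe sets and 30 of the 46 members that remained (65.2%) were called under DMSO. Under RSL, 52.9% of the remaining probe sets and 29 of the 46 members (63%) were called. The median difference of the members was -0.02 under DMSO and 0.01 under RSL, against -0.01 and -0.02 over all probe sets. Called in both comparisons were 24 members, 9 of them higher in both and 15 lower in both, and 0 had opposite signs. The same count over all probe sets was not made, so these counts cannot be read as particular to the members. Across the 50 members the 2 differences correlated at a Pearson r of 0.88, against 0.90 over all probe sets. This is a description, because the points share their arrays and the same clone. Integration of the plasmids, selection and the origin of the clone from a single cell cannot be told apart in these comparisons. In whole cultures, fewer cells in S phase and less of an RNA per cell cannot be told apart either.

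**Figure D3:**
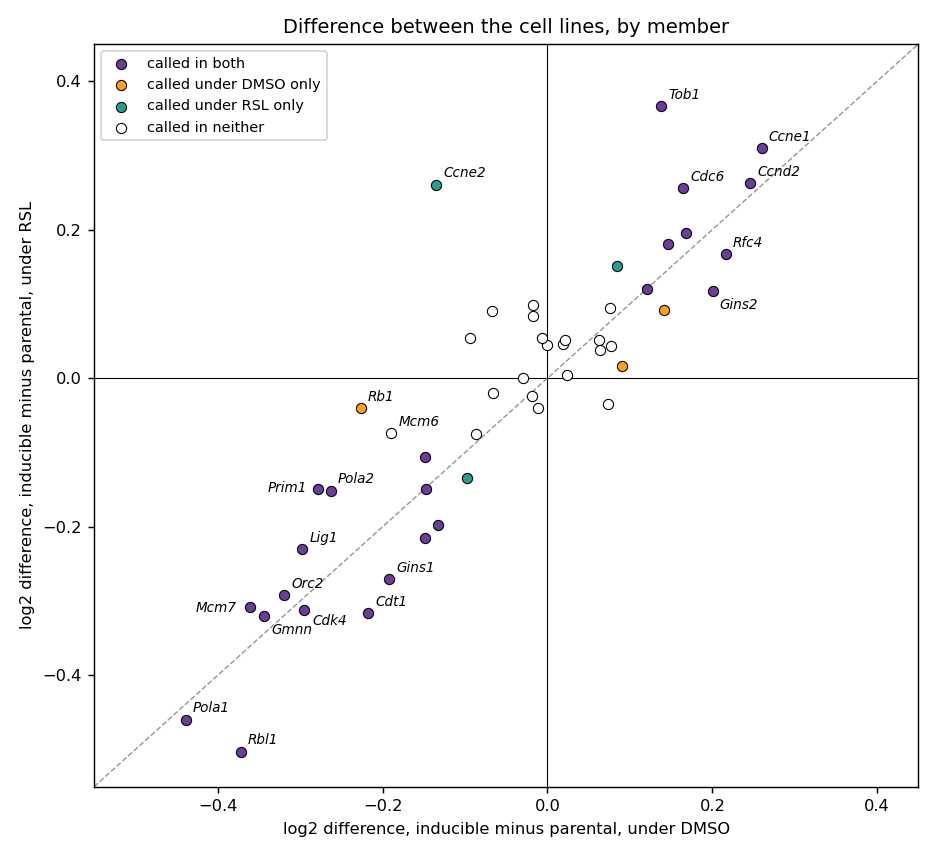
Log2 difference between inducible and parental cells for each of the 50 members under DMSO (horizontal axis) and under RSL (vertical axis), coloured by which comparison called them; the dashed line marks equal differences. Pola1 and Rbl1 lie farthest to the lower left, Ccne1, Ccnd2 and Tob1 to the upper right, and Ccne2 is negative under DMSO and positive under RSL.

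Among the D-type cyclins and their kinases, the genes went both ways. Cdk4 read 11.30, 11.31 and 11.27 in inducible cells under DMSO and 11.63, 11.57 and 11.58 in parental cells. Under RSL it read 11.25, 11.26 and 11.23 in inducible cells and 11.57, 11.51 and 11.59 in parental cells. All inducible arrays were below all parental arrays, with a difference of -0.30 under DMSO (standard error 0.03, adjusted p = 2.58e-06 from limma) and -0.31 under RSL (adjusted p = 1.17e-06) on the log2 scale. Its partner Ccnd1 was lower by 0.15 and 0.21 on the log2 scale, whereas Ccnd2, cyclin D2, was higher by 0.25 under DMSO and 0.26 under RSL. Ccnd3 and Cdk6 were not called in either comparison.

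Of the E-type cyclins, Ccne1 was higher in the clone. It read 9.32, 9.29 and 9.28 in inducible cells under DMSO against 9.03, 9.05 and 9.04 in parental cells, and 9.42, 9.33 and 9.37 against 9.08, 9.04 and 9.07 under RSL. No arrays of the lines overlapped, and the differences were 0.26 (adjusted p = 8.53e-06 from limma) and 0.31 (adjusted p = 1.07e-06). Ccne2 was instead at -0.13 under DMSO (standard error 0.07, adjusted p = 0.150 from limma) and at 0.26 under RSL (adjusted p = 0.00529 from limma), and passed only in the latter. Cdk2 was called in neither.

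Of the 6 members with the largest differences, 3 were licensing genes. Mcm7 read 11.04, 11.10 and 11.08 in inducible cells under DMSO and 11.46, 11.42 and 11.41 in parental cells. Under RSL it read 11.10, 11.08 and 11.09 against 11.40, 11.43 and 11.37. The lines did not overlap, and the differences were -0.36 (standard error 0.03, adjusted p = 1.87e-07 from limma) and -0.31 (adjusted p = 1e-06).

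Geminin followed the same pattern. Gmnn read 10.35, 10.30 and 10.37 under DMSO and 10.37, 10.37 and 10.31 under RSL in inducible cells. In parental cells it read 10.61, 10.74 and 10.70 under DMSO and 10.67, 10.69 and 10.64 under RSL. Every inducible array was below every parental array, and the differences were -0.34 (adjusted p = 2.62e-06 from limma) and -0.32 (adjusted p = 4.82e-06).

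Orc2, a subunit of the origin recognition complex, was also lower in the clone. It read 9.11, 9.06 and 9.08 under DMSO and 9.14, 9.06 and 9.07 under RSL in inducible cells, against 9.37, 9.41 and 9.43 and then 9.37, 9.40 and 9.38 in parental cells. The groups were again separate, with differences of -0.32 (adjusted p = 1.37e-06 from limma) and -0.29 (adjusted p = 2.98e-06). Treatment made little difference to these 3 genes, which lay between -0.03 and 0.02 for RSL over DMSO in either line.

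The subunits of these complexes did not move as one. Of the MCM subunits, Mcm3, Mcm5 and Mcm7 were called lower in both comparisons, and Mcm2, Mcm4 and Mcm6 in neither, the last at -0.19 under DMSO (standard error 0.07, adjusted p = 0.0548 from limma). In the origin recognition complex, Orc1 was higher under DMSO, at 0.14 (adjusted p = 0.00874 from limma), and Orc6 was called in neither. Cdc6 was higher by 0.16 and 0.26, while its partner in loading the helicase, Cdt1, was lower by 0.22 under DMSO and 0.32 under RSL. Of the GINS complex, which joins Cdc45 and the MCM helicase at firing, Gins1 was at -0.19 and -0.27 and Gins2 at 0.20 and 0.12, both called under both treatments. Cdc7, Dbf4, Cdc45 and Mcm10 were called in neither.

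**Figure D4:**
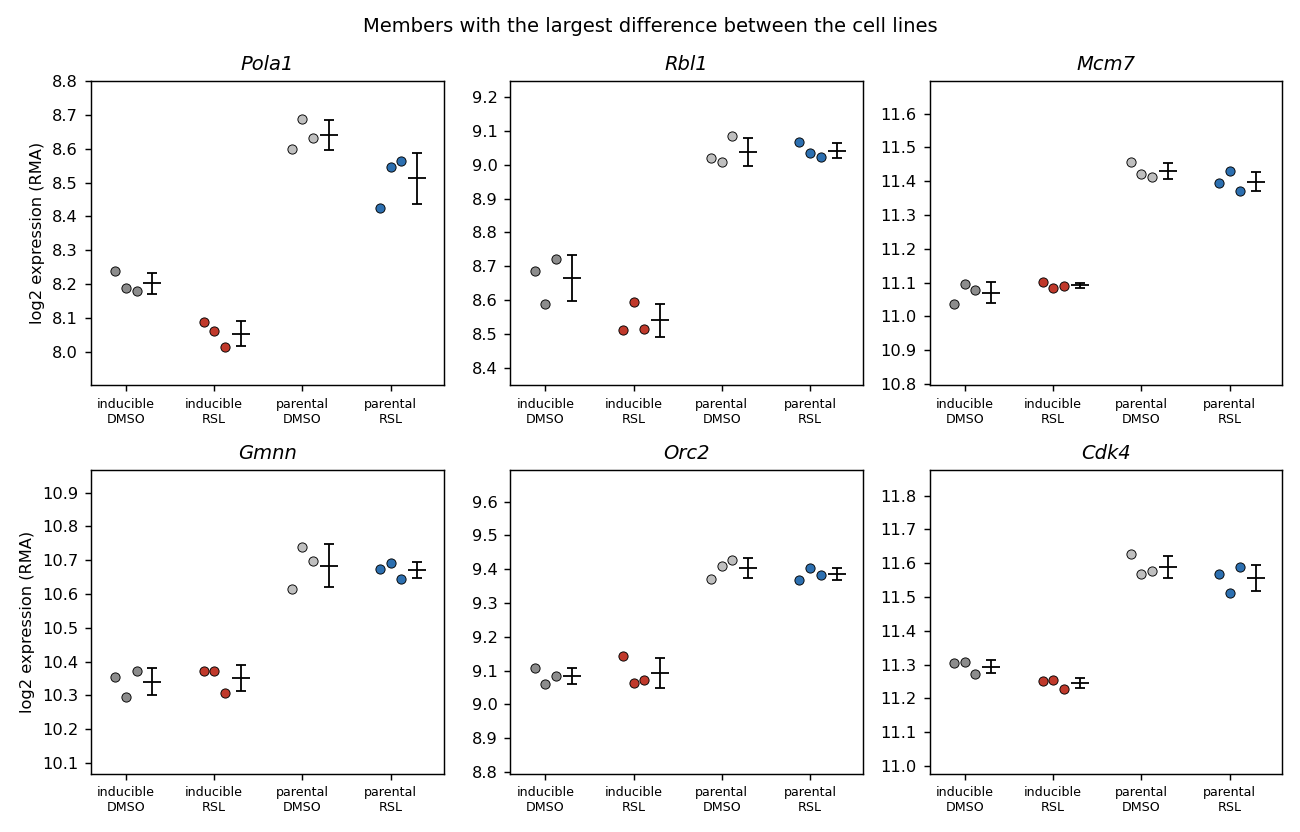
Log2 expression of the 6 members with the largest difference between the cell lines among those called under both treatments; points are single arrays, and the bars beside them give the mean and standard deviation of each group of 3; each panel spans 0.9 on the log2 scale. For all 6 genes every inducible array lies below every parental array.

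At the replication fork, the 3 members that start each strand were lower in the clone. Pola1 read 8.24, 8.19 and 8.18 under DMSO and 8.09, 8.06 and 8.01 under RSL in inducible cells. In parental cells it read 8.60, 8.69 and 8.63 under DMSO and 8.43, 8.55 and 8.56 under RSL. Inducible arrays were all lower, and within each line the RSL arrays were all below the DMSO arrays. Between the lines the difference was -0.44 (standard error 0.04, adjusted p = 3.37e-07 from limma) under DMSO and -0.46 (adjusted p = 1.77e-07) under RSL.

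The accessory subunit Pola2 was lower by 0.26 and 0.15, and the catalytic primase subunit Prim1 by 0.28 and 0.15, under DMSO and RSL in turn, and both were called each time. The primase gene Prim2, which is not a member, overlapped between the lines. It read 8.80, 8.75 and 8.76 in inducible cells under DMSO against 8.69, 8.77 and 8.77 in parental cells. Under RSL it read 8.71, 8.72 and 8.55 against 8.69, 8.63 and 8.70. Polymerase delta's catalytic subunit Pold1 was higher, at 0.17 and 0.20, and that of polymerase epsilon, Pole, was lower, at -0.10 under DMSO (adjusted p = 0.0942 from limma) and -0.13 under RSL (adjusted p = 0.0188 from limma). The clamp loader divided too: Rfc3 was lower at -0.15 and -0.11, Rfc4 higher at 0.22 and 0.17, and Rfc5 was at 0.08 under DMSO and 0.15 under RSL, passing only in the latter. Lig1, the ligase that joins Okazaki fragments, was lower by 0.30 and 0.23. The single-strand binding genes Rpa1 and Rpa2 and the flap nuclease gene Fen1 were called in neither comparison.

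In the E2F and RB family, Rbl1, which encodes p107, had the largest difference under RSL. It read 8.69, 8.59 and 8.72 under DMSO and 8.51, 8.60 and 8.51 under RSL in inducible cells. In parental cells it read 9.02, 9.01 and 9.09 under DMSO and 9.07, 9.04 and 9.02 under RSL. All inducible arrays lay below all parental arrays, with a difference of -0.37 under DMSO (standard error 0.04, adjusted p = 1.78e-06 from limma) and -0.50 under RSL (adjusted p = 4.92e-08). Rb1 was lower under DMSO, at -0.23 (adjusted p = 0.000928 from limma), but at -0.04 under RSL (adjusted p = 0.533 from limma). E2f1 was higher by 0.09 under DMSO, just past the threshold (adjusted p = 0.0466 from limma), and the call was lost in 9 of the 12 fits that left out 1 array.

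Of the nucleotide supply members, Rrm1, Rrm2, Tyms and Tk1 were called in neither comparison. Rrm2 passed under RSL when the lowest 40% of probe sets were left out, at 0.095 (adjusted p = 0.0439 from limma). Slbp, whose product binds histone mRNA, was higher by 0.12 in both. Of the inhibitors, Cdkn2c, the gene of p18INK4c, was higher by 0.15 and 0.18, Tob1 by 0.14 under DMSO and 0.37 under RSL, and Cdkn1b, which encodes p27KIP1, was called in neither. Among the 12 members that were lower under both treatments and had a promoter sequence, 5 held the TTTNNCGC pattern shown above (Mcm5, Mcm7, Pola1, Rbl1 and Rfc3). Of 7 such members that were higher, 1 did (Cdc6), as did 5 of the 22 others. The same split over all probe sets was not made. These small counts were not tested and cannot be read as a link between the pattern and a direction.

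**Figure D5:**
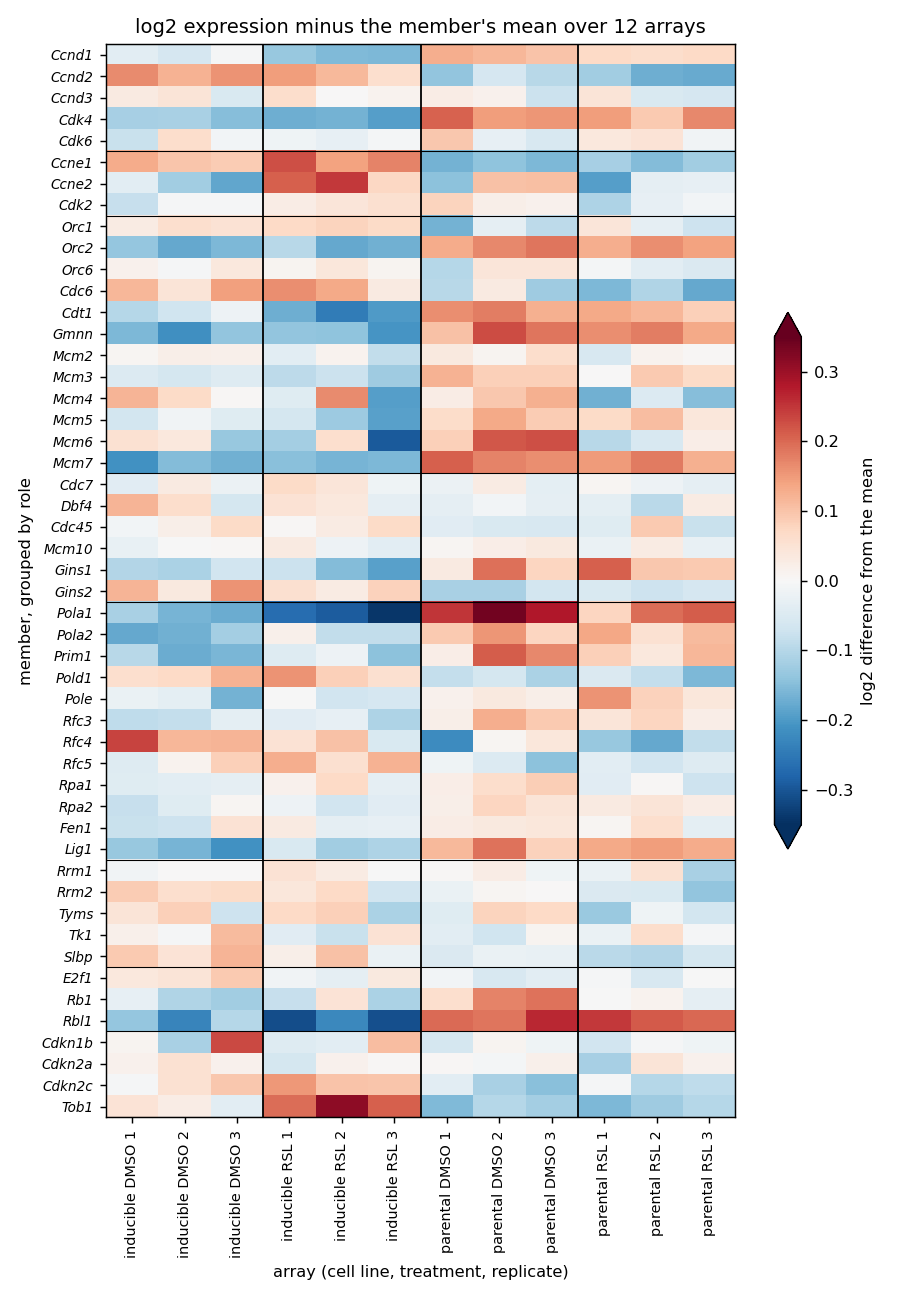
Log2 expression of the 50 members (rows, grouped by role) on the 12 arrays (columns), each minus the member's mean over all arrays; the colour scale runs from -0.35 (blue) to 0.35 (red), and values beyond it take the end colour. The main contrast is between the 6 inducible and the 6 parental arrays, in rows of both directions.

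The other genes of these pathways were taken from lists by role, 85 of which had a named probe set. RSL changed 1 of them in inducible cells, Pold4, a small subunit of polymerase delta, which was lower at -0.18 (standard error 0.04, adjusted p = 0.0391 from limma). Over all probe sets, 1.32% were called higher and 1.21% lower in that comparison. In parental cells 0 of the 85 were called, and the test of the difference also called 0. Between the lines, 14 were higher and 20 lower in inducible cells under DMSO, and 20 higher and 23 lower under RSL, to be read against the 15.2% and 14.5% of all probe sets called under DMSO and the 17.5% and 16.8% under RSL. Under DMSO the largest differences were those of Wdhd1, a factor that couples the helicase to polymerase alpha, at -0.37, Rnaseh2b, a subunit of ribonuclease H2, at -0.37, Ccnh, the cyclin of the CDK-activating kinase, at -0.36, and Pole4, a small subunit of polymerase epsilon, at 0.36. Rnaseh2b at -0.38, Pole2 at -0.35, Pole4 at 0.35 and the E2F factor gene E2f3 at 0.33 were the largest under RSL. By list under DMSO, the E2F, DP and RB family had 2 higher and 5 lower of 15, fork genes 4 higher and 5 lower of 20, and licensing and firing genes 2 higher and 3 lower of 14. Cyclin A and CDK regulators had 0 higher and 4 lower of 13, nucleotide supply 3 higher and 1 lower of 10, chromatin copying 2 higher and 2 lower of 7, the TOB and BTG family 1 higher and 0 lower of 2, and CDK inhibitors 0 of 4 called. Under RSL, nucleotide supply had 5 higher and 2 lower, cyclin A and CDK regulators 3 higher and 5 lower, and the E2F, DP and RB family 3 higher and 6 lower. The other lists had the same counts as under DMSO. As a comparison from a later phase of the cycle, 17 genes of mitosis had a median RSL effect of -0.06 in inducible cells, against 0.00 over all probe sets. Of these, 0 were called higher, where 1.32% of all probe sets were, and 2 lower, where 1.21% were. In parental cells the median was -0.02, against 0.01 over all probe sets, with 0 called.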

How the data were processed

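RNA of 12 NIH 3T3 samples was hybridized to Affymetrix Mm430_2.0 arrays. The authors deposited 1 table of log2 values, made with a Custom CDF (version 10, Entrez-based), RMA background correction and quantile normalization. The base of the logarithm was taken from the range of values, and the sources used here do not name the step that summarised probes. Groups and replicate numbers came from the labels, and the table holds 0 columns of other samples. Of 16539 probe sets, 64 hybridization controls were left out. Of the other 16475, 15780 have 1 gene symbol in the annotation given for the platform and 695 have none here. In limma 3.58.1 (R 4.3.3), 4 group means were fitted to the deposited log2 values of all 12 arrays, with 8 residual degrees of freedom, moderated variances and no block. There were 5 comparisons, and a probe set was called at a Benjamini-Hochberg adjusted p under 0.05. An exact permutation test of 3 against 3 arrays cannot go below 0.1. Arrays give no count of molecules, so their number limits the precision. The fit was tested on simulated data, with noise drawn independently for each probe set and array. For RSL in inducible cells it recovered 74% of changes of 0.2 on the log2 scale and 90% of those of 0.3. Smaller changes, and scatter shared by genes on an array, were not simulated. The members, gene lists and tests were chosen with earlier results of these data known. Values on every array are given for members called in an RSL comparison and for the 6 with the largest difference among those called in both comparisons of the lines, with Ccnd1, Ccne1, Mcm4 and Mcm6 added after their values were seen. Per pathway comparison, up to 4 genes are named, and Prim2 was added after its values were seen. Promoter sequences came from RefSeq (GRCm38.p6), of which the 250 bases before each start were used. The alternatives tried were array weights, subtraction of array medians, the replicate number as a block, leaving out the 40% of probe sets lowest in mean, an intensity trend, only the 6 arrays compared, the methods' one-way analysis, and leaving out each array in turn.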

Additional observations from a re-analysis of the deposited data

How the results depend on the processing

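For RSL in inducible cells, 3 members were called (6%, where 2.54% of all probe sets were). With the lowest 40% of probe sets left out, 5 of 46 were (10.9%, where 5.19% of the remaining probe sets were). Array weights also called 5, and both settings added Ccnd1 and Pola1. The methods' one-way analysis called 7 at a nominal p and 0 after Benjamini-Hochberg. Leaving out single arrays gave 1 to 4. In parental cells 0 were called, against 6 in the one-way analysis at a nominal p, and 0 to 0 without single arrays. For the difference between the effects, 0 were called. With the filter 1 was (Tob1, 2.17% of the members, where 1.38% of the remaining probe sets were). Array weights called 4 (Ccne2, Rb1, Rpa1 and Tob1), and leaving out single arrays gave 0 to 1. For array weights, the one-way analysis and single arrays left out, shares over all probe sets are not given here. A gain or loss among the members cannot be read from those counts alone. Between the lines, 27 members were called under each treatment, and 23 to 29 under DMSO and 24 to 28 under RSL without single arrays. Array weights called 33 and 28, and the one-way analysis after Benjamini-Hochberg 19 and 20, losing among others Cdc6, Gins1, Orc1, Prim1, Rb1, Rfc3 and Tob1 under DMSO and Ccne2, Pola2 and Pold1 under RSL. Leaving out 1 array ended line calls of Cdc6, Cdkn2c, E2f1, Mcm5, Rfc4, Slbp and Tob1 under DMSO and of Gins2, Pole, Prim1, Rfc3, Rfc4 and Slbp under RSL. Replicate numbers did not pair the arrays: correlations of deviations were 0.07, -0.01 and 0.21 in inducible cells and -0.10, -0.27 and 0.14 in parental cells. With the replicate block, 2, 0, 0, 26 and 26 members were called in the 5 comparisons, and Cdt1 lost its call (adjusted p = 0.0680 from limma). With only the 6 inducible arrays, Cdt1 lost it too (adjusted p = 0.0730 from limma). Over all settings, 1069 of 1140 values of called members kept direction and call, 71 kept the direction only, and 0 reversed. Many of these values could not reverse. Their setting changed only the variance or the probe sets tested, or left out an array of another group, and the difference stayed the same. The causes were not tested. With 3 arrays a group, standard errors ran from 0.030 to 0.071, and the smallest difference called was 0.09, for E2f1 under DMSO.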
